A study of Mus musculus with 6 samples.

Results

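The genes of the NF-κB family and of its feedback inhibitors were followed in sorted LSK cells. These are BM cells without lineage markers that carry both Sca1 and c-Kit, and they include the hematopoietic stem and progenitor cells. The 10 genes were chosen by name from the 54532 genes of the RNA-seq table: 5 subunits (*Nfkb1*, *Nfkb2*, *Rel*, *Rela* and *Relb*) and 5 inhibitors (*Nfkbia*, *Nfkbie*, *Nfkbiz*, *Nfkbid* and *Tnfaip3*). Each was found in exactly 1 row. The groups were 3 libraries of *Myh9* fl/fl mice with *Mx1-cre* (cKO, called *Myh9*-deficient below) and 3 of *Myh9* fl/fl littermates without cre (CTRL, called control), all C57BL/6. The mice were genotyped at 4 to 5 weeks of age and injected at 5 to 6 weeks. Both groups received poly I:C at 5 mg/kg, and 100000 LSK cells per library were sorted on day 4 after the first injection. The doses numbered 2 in the sample descriptions and 3 in the study's methods. *Mx1-cre* is switched on by interferon and is active beyond blood cells, and poly I:C, a double-stranded RNA mimic, reached the controls as well. The number of mice behind each cell set is not given in the sources used here, so the p-values measure the spread between these libraries, which may be in part technical.

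NF-κB is a family of dimeric transcription factors. In resting cells most dimers are held in the cytoplasm by IκB proteins. In the canonical route, receptors for TNF, IL-1 or microbial and viral patterns lead to the IκB kinase complex, which marks IκBα for destruction, and dimers such as p65 with p50 then enter the nucleus. In the non-canonical route, the kinase NIK leads to processing of the *Nfkb2* product and release of dimers with RelB. Many of the genes that NF-κB switches on encode its own brakes, IκBα and A20 among them. In hematopoietic stem and progenitor cells these routes are known for their part in the response to inflammatory signals, and poly I:C is such a signal.

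Of the 5 genes grouped as inhibitors 4 fell in *Myh9*-deficient LSKs, with *Nfkbie* as the exception, and the subunits went in both directions. The group includes *Nfkbiz* and *Nfkbid*, whose nuclear IκB proteins set which target genes respond. *Nfkbiz* fell to 41.4% of its control mean, *Tnfaip3* to 47.1%, *Nfkbid* to 63.2% and *Nfkbia* to 86.2%, whereas *Rela* fell to 89.6% and *Nfkb1* and *Nfkb2* did not pass the test. The scarce subunits moved in opposite directions: *Rel* fell to 58.2% of its control mean and *Relb* rose to 148%. In all, 6 of the 10 members were lower, 1 was higher and 3 did not pass at an adjusted p under 0.05 (limma), where 20.6% of the 11552 genes tested were lower, 19.9% were higher and 40.5% were called either way. In 8 of the 10 members no library of one group lay within the range of the other, against 54% of all genes tested. Among the 10, the median log2 fold change was -0.18, and over all genes tested it was -0.01. At more than 2-fold, which 0.693% of genes tested passed downwards and 2.09% either way, only *Nfkbiz* was called, just past the limit. That limit is not a firm one: *Nfkbiz* was at -0.99 with median-of-ratios scaling, with quantile normalization or without CTRL replicate 3, at -0.96 with the dependence on GC content and length taken out and at -0.93 without cKO replicate 2, and *Tnfaip3* passed it with a pseudocount of 0.1 (-1.06), TPM (-1.01) or voom (-1.07). Fold changes here are *Myh9*-deficient over control on log2(FPKM + 1), where FPKM are fragments relative to gene length and to all reads of the library. They understate the change of low genes, so the ratios of means are given beside them. LSKs were measured in bulk, so fewer cells of a type and less RNA per cell cannot be told apart in any of these values.

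**Figure D1:**
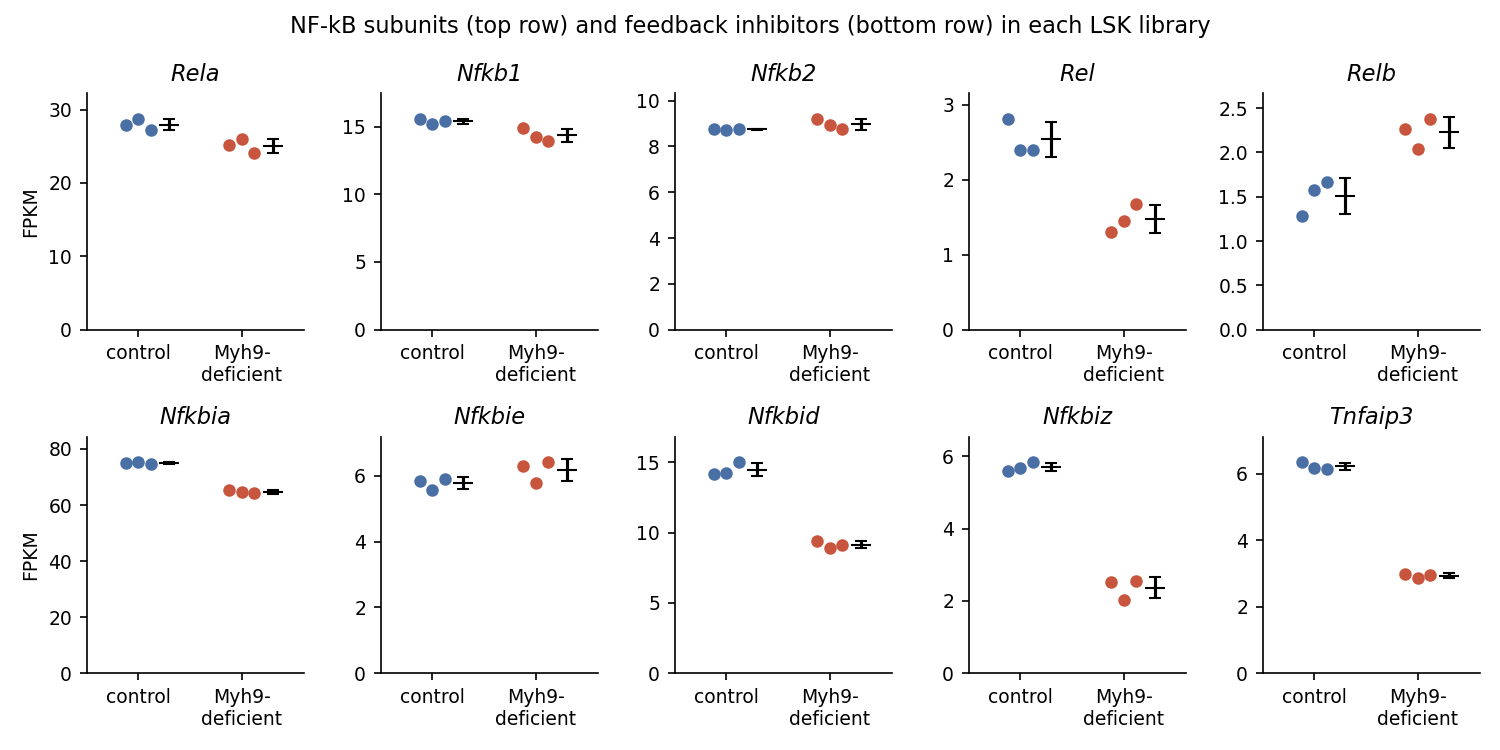
FPKM of each member in each library, with subunits in the top row and inhibitors in the bottom row. Points are single libraries, the black mark is the mean with its SD (n = 3), and every axis starts at 0. *Nfkb2* and *Nfkbie* are the members whose groups overlap, and *Relb* is the only one of the other members whose *Myh9*-deficient libraries lie above the control libraries.

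*Myh9* measured 23.0, 22.6 and 22.0 FPKM in the control libraries and 18.4, 19.96 and 17.7 FPKM in the *Myh9*-deficient libraries (log2 fold change -0.26, adjusted p = 0.00642, limma). The groups did not overlap, and the targeted gene kept 82.9% of its control mean. A value over the whole gene cannot show the loss of the floxed exon 1, so the name *Myh9*-deficient follows the genotype in the labels. The libraries held 17571544 to 19894562 reads on genes, which can be recovered because FPKM times gene length came out as whole multiples of 1 step. The defining markers of the sort were present: *Kit* measured 23.9 ± 0.454 and 21.5 ± 0.334 FPKM, and *Ly6a*, which encodes Sca1, 95.4 ± 1.87 and 89.5 ± 3.63 FPKM in control and *Myh9*-deficient LSKs (SD, n = 3). Of the 6 LSK markers 2 were higher, 1 was lower and 3 did not pass, with sums of 205–209 and 209–218 FPKM. *Kit* was the lower one, and *Flt3* (19.8 ± 0.780 and 30.1 ± 1.18 FPKM) and *Procr* (2.80 ± 0.129 and 5.09 ± 0.691 FPKM), markers of multipotent progenitors and of stem cells, were the higher ones. Markers of monocytes and macrophages were lower in *Myh9*-deficient LSKs for 7 of 7 genes, and their summed level went from 707–746 FPKM in the control libraries to 305–329 FPKM in the *Myh9*-deficient libraries. *Cd14*, a defining marker of these cells, went from 21.2 ± 1.69 to 3.67 ± 0.738 FPKM. Of 6 neutrophil markers, 5 were tested and 4 were lower, with a summed level of 211–226 FPKM in the control and 177–202 FPKM in the *Myh9*-deficient libraries. Erythroid markers were higher for 5 of 5 genes, with sums of 23.0–24.4 and 63.9–78.6 FPKM, and *Hbb-bt* went from 3.65 ± 0.540 to 37.4 ± 6.99 FPKM. Megakaryocyte markers were higher for 3 of 3 tested of 4, with sums of 56.2–59.9 and 124–129 FPKM, and *Pf4* went from 31.9 ± 1.10 to 68.1 ± 4.42 FPKM. Of 5 plasma cell markers, 2 were higher and 1 was lower, with sums of 38.5–39.1 and 72.8–79.1 FPKM, and *Sdc1* was the lower one at 3.31 ± 0.360 and 2.26 ± 0.362 FPKM. T and NK cell markers summed to 1.80–2.73 and 10.1–10.8 FPKM, with 1 of 6 tested and higher, and *Cd3e* was at 0 in every control library and at 0.234 ± 0.0496 FPKM in *Myh9*-deficient LSKs. Of the B cell markers, *Cd79a* was the only one above the filter and was higher, at 0.743 ± 0.199 and 1.52 ± 0.161 FPKM, and *Pax5* was at 0 in every control library. For comparison with these counts, 20.6% of all genes tested were lower, 19.9% were higher and 40.5% were called either way. These markers moved with the groups together with the members below, and their part in the results was not tested.

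The promoters of the members are shown first, because several inhibitors are known targets of the factor they restrain. RefSeq promoter sequences (GRCm38.p6), from 250 bases before to 50 bases after a gene's start, matched 7 of the 10 members: *Nfkb2*, *Rel*, *Rela*, *Nfkbia*, *Nfkbie*, *Nfkbid* and *Tnfaip3*. The κB consensus, a motif of 10 bases, was searched on both strands. It was found in the windows of 6 of these 7 members, in 9.55% of all 27025 genes with a window and in 12.01% of the 8193 genes tested that have one. A gene counted if any of its windows held a match, and *Nfkbid* counted only through a further start. The shares were 13.3% among genes called lower, 10.6% among genes called higher and 12.01% among genes that did not pass. Of the lists described below, 11 of the 22 target genes with a window held a match, 5 of 11 other inhibitors, 4 of 20 ligands and receptors, 5 of 26 adaptors and kinases and 6 of 25 immediate early genes. Such a match describes the letters of the window and is not a measured binding site. The 250 bases before the start of *Nfkbia*, at chr12:55492648-55492897 on the minus strand, are printed because IκBα is the classical feedback inhibitor and the most abundant member. Capitals mark the match to the κB consensus, which lies 29 to 20 bases before the start.
Nfkbia: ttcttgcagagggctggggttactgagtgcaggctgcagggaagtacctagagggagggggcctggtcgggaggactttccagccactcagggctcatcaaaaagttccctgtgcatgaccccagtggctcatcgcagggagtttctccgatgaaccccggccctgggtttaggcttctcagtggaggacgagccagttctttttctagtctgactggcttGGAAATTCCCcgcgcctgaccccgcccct

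Those matches of the other members that the text describes are printed with 10 bases on either side, read 5′ to 3′ on the gene's strand, with the match in capitals, so that the sites of members that fell and of members that did not pass can be compared. *Tnfaip3* has a match at each of 2 places, the first 125 to 116 bases and the second 12 to 3 bases before the RefSeq start, at chr10:19015516-19015545 and chr10:19015403-19015432 on the minus strand. This start lies inside the gene as the table gives it, 247 bases from its 5′ end. In *Nfkb2*, 2 overlapping matches begin 39 and 38 bases before the start and another lies 11 to 2 bases before it (chr19:46304688-46304717 and chr19:46304716-46304745, plus strand). *Rel* holds 2 overlapping matches that begin 92 and 91 bases before its start (chr11:23771042-23771071, minus strand), and *Nfkbie* holds 1 at 106 to 97 bases (chr17:45555584-45555613, plus strand). The window at the first start of *Nfkbid* and that of *Rela* hold no match. A further RefSeq start of *Nfkbid* has 2 matches, 226 to 217 and 181 to 172 bases before it (chr7:30422170-30422199 and chr7:30422215-30422244, plus strand). Further RefSeq starts of *Nfkb2* have 2 more matches, at chr19:46305449-46305478 and chr19:46305695-46305724 with their flanks, on the plus strand, which are printed last. Where matches overlap, the first is in capitals.
Tnfaip3, first: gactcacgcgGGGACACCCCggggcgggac
Tnfaip3, second: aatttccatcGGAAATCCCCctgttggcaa
Rel: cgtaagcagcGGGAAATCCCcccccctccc
Nfkb2, first: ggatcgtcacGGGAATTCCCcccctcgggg
Nfkb2, second: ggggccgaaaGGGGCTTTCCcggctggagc
Nfkbie: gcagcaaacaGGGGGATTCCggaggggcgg
Nfkbid, further start, first: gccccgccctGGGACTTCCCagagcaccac
Nfkbid, further start, second: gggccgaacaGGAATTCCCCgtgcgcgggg
Nfkb2, further start, first: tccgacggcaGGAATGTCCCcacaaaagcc
Nfkb2, further start, second: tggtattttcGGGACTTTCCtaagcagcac

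*Rela* (chromosome 19 from 5637483 to 5648130, mm10) encodes p65, the subunit with a transactivation domain that carries most canonical activity. It measured 27.9, 28.7 and 27.2 FPKM in the control libraries and 25.2, 25.9 and 24.0 FPKM in the *Myh9*-deficient libraries. Every *Myh9*-deficient library lay below every control library, by a small margin. The log2 fold change was -0.15 with a standard error (SE) of 0.039 (95% interval -0.25 to -0.06, adjusted p = 0.0208, limma), and 49.7% of genes tested changed by a larger size. The call was lost when CTRL replicate 1 or 2 was left out (adjusted p = 0.0599 and 0.0689), and likewise for cKO replicate 1 or 3 (adjusted p = 0.0514 and 0.0557).

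*Nfkb1* (chromosome 3 from 135584655 to 135691547) encodes p105, the precursor of p50, which is the usual partner of p65. Its values were 15.6, 15.2 and 15.4 FPKM in the control libraries and 14.9, 14.2 and 13.9 FPKM in the *Myh9*-deficient libraries. The groups did not overlap, yet the test was not passed (log2 fold change -0.09, SE 0.036, adjusted p = 0.0807, limma). With quantile normalization or with TPM it passed (adjusted p = 0.0421 and 0.0459), and once the dependence on GC content and length was taken out of each library its log2 fold change was 0.01 (adjusted p = 0.787), so no direction is given for *Nfkb1*.

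*Nfkb2* (chromosome 19 from 46304737 to 46312090) encodes p100, the precursor of p52 and itself an inhibitor of RelB dimers. It stood at 8.76, 8.71 and 8.74 FPKM in the control libraries and at 9.20, 8.94 and 8.74 FPKM in the *Myh9*-deficient libraries. The groups overlapped, and the interval of the log2 fold change of 0.03 ran from -0.05 to 0.12 (adjusted p = 0.519, limma). Exons of *Psd* overlap 299 bases of *Nfkb2* exons on the opposite strand and those of AC114539.1 overlap 531 bases. Without strand information in the library kit such reads cannot be assigned to one gene, although *Psd* averaged only 0.605 FPKM.

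*Rel* (chromosome 11 from 23736847 to 23770970) encodes c-Rel, a transactivating subunit best known from lymphoid and myeloid cells. It measured 2.82, 2.40 and 2.40 FPKM in the control libraries, from 316 to 418 reads, and 1.302, 1.45 and 1.68 FPKM in *Myh9*-deficient LSKs, from 182 to 233 reads. The groups were well apart (log2 fold change -0.52, SE 0.086, adjusted p = 0.00403, limma), and only 8.09% of genes tested changed by a larger size. *Relb* (chromosome 7 from 19606217 to 19629438) encodes RelB, the transactivating partner of p52 in the non-canonical route. It was at 1.28, 1.58 and 1.66 FPKM in the control libraries, from 99 to 124 reads, and at 2.27, 2.03 and 2.38 FPKM in *Myh9*-deficient LSKs, from 144 to 172 reads. All *Myh9*-deficient libraries lay above all control libraries (log2 fold change 0.37, SE 0.086, adjusted p = 0.0153, limma). Without cKO replicate 3 the adjusted p of *Relb* was 0.0502.

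The fall of *Rel* and the rise of *Relb* changed their order in FPKM. Per length, *Rel* was the higher of this pair in each of the 3 control libraries, at 2.20, 1.52 and 1.44 times *Relb*, and the lower in each of the 3 *Myh9*-deficient libraries, at 0.574, 0.715 and 0.705 times *Relb*. This order depends on the deposited lengths, 7466 bases for *Rel* and 3885 for *Relb*. In reads *Rel* stayed the higher in the *Myh9*-deficient libraries too, at 182, 198 and 233 against 165, 144 and 172. The ratio of *Rel* to *Relb* was chosen after the values were seen. As a share of the summed FPKM of the 5 subunits, *Rel* went from 4.52% ± 0.412 to 2.84% ± 0.426 and *Relb* from 2.69% ± 0.374 to 4.28% ± 0.411 (SD, n = 3). Relative to their size, the shares of the abundant subunits moved less: *Rela* took 49.8% ± 0.852 and 48.1% ± 1.06, *Nfkb1* 27.4% ± 0.497 and 27.6% ± 0.561, and *Nfkb2* 15.6% ± 0.208 and 17.2% ± 0.211. In percentage points, *Rela* and *Nfkb2* moved about as far as *Rel* and *Relb*. The summed level of the subunits was 56.1 ± 0.671 FPKM in the control libraries and 52.1 ± 1.14 FPKM in the *Myh9*-deficient libraries. Within the non-canonical pair, *Nfkb2* was 5.87 ± 0.845 times *Relb* in control and 4.04 ± 0.362 times in *Myh9*-deficient LSKs.

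**Figure D2:**
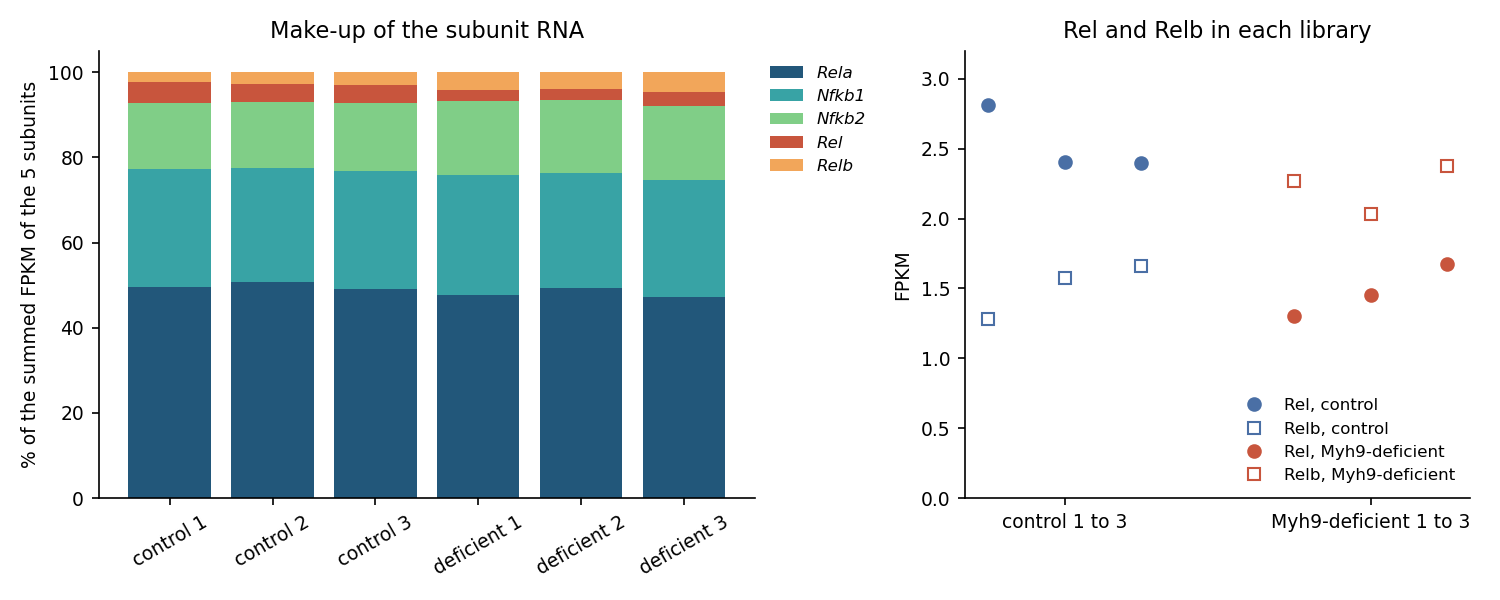
Left, the share of each subunit in the summed FPKM of the 5 subunits, as stacked bars for each library. Right, FPKM of *Rel* (filled circles) and *Relb* (open squares) in each library. *Rela* and *Nfkb1* make up most of every bar, and *Rel* lies above *Relb* in each control library and below it in each *Myh9*-deficient library.

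*Nfkbia* (chromosome 12 from 55489410 to 55492647) encodes IκBα, which binds p65 dimers in the cytoplasm and is resynthesised after each wave of NF-κB activity. It was the most abundant member, at 75.1, 75.2 and 74.8 FPKM in the control libraries and 65.3, 64.5 and 64.2 FPKM in the *Myh9*-deficient libraries. Libraries of one group lay within about 1 FPKM of each other and the groups were far apart on that scale. The fall was small in size (log2 fold change -0.21, SE 0.023, adjusted p = 6.5e-04, limma), and 35.3% of genes tested changed more. Set against *Rela*, it measured 2.69 ± 0.0664 times *Rela* in control and 2.58 ± 0.0928 times in *Myh9*-deficient LSKs, with overlapping libraries.

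*Nfkbie* (chromosome 17 from 45555703 to 45563169), which encodes the related cytoplasmic inhibitor IκBε, was at 5.85, 5.57 and 5.90 FPKM in the control libraries and 6.29, 5.78 and 6.41 FPKM in the *Myh9*-deficient libraries. The groups overlapped. Its log2 fold change of 0.08 had an interval from -0.04 to 0.20 (adjusted p = 0.258, limma), which leaves out changes as large as those of the nuclear IκB genes.

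*Nfkbiz* and *Nfkbid* encode IκBζ and IκBNS, nuclear IκB proteins that are bound to dimers on DNA and set which target genes respond. *Nfkbiz* (chromosome 16 from 55811375 to 55838899) measured 5.60, 5.68 and 5.84 FPKM in the control libraries and 2.52, 2.02 and 2.54 FPKM in the *Myh9*-deficient libraries. *Nfkbid* (chromosome 7 from 30421732 to 30428746) measured 14.1, 14.2 and 14.99 FPKM in the control libraries and 9.40, 8.91 and 9.09 FPKM in the *Myh9*-deficient libraries. In both genes each *Myh9*-deficient library lay far below each control library. The log2 fold change of *Nfkbiz* was -1.0001 with a standard error of 0.074 (adjusted p = 1.4e-04, limma), which 2.24% of genes tested exceeded in size. For *Nfkbid* it was -0.61 with a standard error of 0.040 (adjusted p = 8.4e-05, limma).

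*Tnfaip3* (chromosome 10 from 19000910 to 19015657) encodes A20, the ubiquitin-editing enzyme that ends signalling from TNF, IL-1 and Toll-like receptors to the IκB kinase complex. It stood at 6.34, 6.18 and 6.15 FPKM in the control libraries and at 2.99, 2.85 and 2.95 FPKM in the *Myh9*-deficient libraries. The groups did not overlap, and the gap between them was many times the spread within either. The log2 fold change was -0.88 with a standard error of 0.045 (adjusted p = 3.2e-05, limma), which 2.93% of genes tested exceeded in size. *Tnfaip3* fell from 0.223 ± 0.00676 to 0.117 ± 0.00673 times the level of *Rela*, and *Nfkbiz* from 0.204 ± 0.00916 to 0.0946 ± 0.0146 times. The ratios of *Nfkb1* to *Rela* (0.551 ± 0.0192 and 0.574 ± 0.0219) overlapped between the groups.

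**Figure D3:**
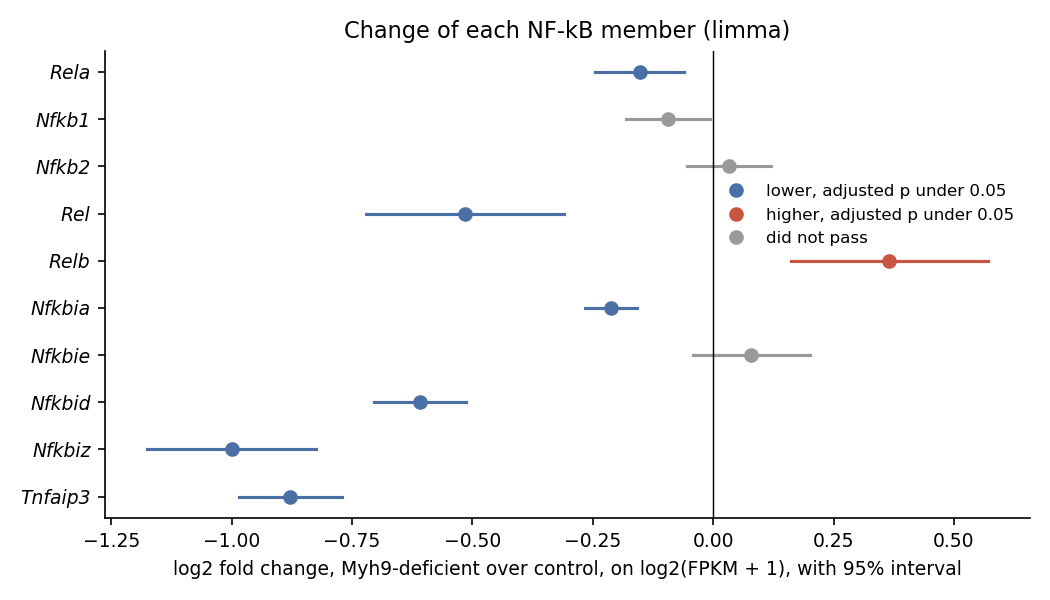
Log2 fold change of each member on log2(FPKM + 1), *Myh9*-deficient over control, with its 95% interval from limma. Points left of the line are lower in *Myh9*-deficient LSKs. *Nfkbiz*, *Tnfaip3* and *Nfkbid* lie farthest to the left and *Relb* is the only call to the right.

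Per length, the order of the levels in control LSKs was *Nfkbia*, *Rela*, *Nfkb1*, *Nfkbid*, *Nfkb2*, *Tnfaip3*, *Nfkbie*, *Nfkbiz*, *Rel* and *Relb*. Neighbours in this order did not overlap, except *Nfkbie* and *Nfkbiz*, whose libraries ran from 5.57 to 5.90 and from 5.60 to 5.84 FPKM. In *Myh9*-deficient LSKs the first 3 places were the same, *Nfkbid* overlapped *Nfkb2*, *Nfkbie* stood above *Tnfaip3*, and *Nfkbiz* overlapped *Relb*. The deposited length of *Rela*, 2716 bases, is shorter than the 3072 exon bases of GENCODE M21, and that of *Nfkb2*, 3289 bases, shorter than 4584, so the levels of these genes against the others depend on that length. Their changes between groups do not.

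The genes whose pattern over the 6 libraries was most like that of each of 3 inhibitors were named by the root mean square difference of centred log2(FPKM + 1). For *Tnfaip3* these were *Fos* (0.0176), *Ms4a6c* (0.0228) and *Hexa* (0.0245), of 7169 genes compared. *Nfkbiz* was most like *Gm11361* (0.0352), *Idh1* (0.0541) and *Ccr2* (0.0644), the last of them a monocyte marker in the list above. *Nfkbia* was most like *Sf3b2* (0.0104), *Ehmt1* (0.0108) and *Mbnl1* (0.0114). Both groups contribute to this measure, so it mostly reflects the size of the difference between them on that scale. There the pseudocount shrinks the changes of low genes, so matched genes can differ in their ratio of means. *Tnfaip3* had 0.471, against 0.538 for *Fos*, 0.522 for *Ms4a6c* and 0.534 for *Hexa*. *Nfkbiz* had 0.414, against 0.503 for *Gm11361* and 0.466 for both *Idh1* and *Ccr2*. *Nfkbia* had 0.862, against 0.859 for *Sf3b2*, 0.846 for *Ehmt1* and 0.858 for *Mbnl1*.

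Upstream of the members, ligands and receptors moved in both directions. Of 23 such genes 12 were tested, and 4 were higher, 5 lower and 3 did not pass, with a median log2 fold change of -0.10. That is a called share of 75%, beside 40.5% of all genes tested. *Tnfrsf1a*, the TNF receptor that signals to the IκB kinase complex in most cells, measured 47.9, 46.8 and 47.1 FPKM in the control libraries and 34.1, 31.6 and 31.0 FPKM in the *Myh9*-deficient libraries (log2 fold change -0.54, adjusted p = 1.6e-04, limma). The groups did not overlap. *Tnfrsf1b*, the other TNF receptor, fell from 21.03 ± 0.671 to 15.4 ± 1.00 FPKM, *Tlr2*, the receptor for bacterial lipoproteins, from 5.55 ± 0.740 to 3.76 ± 0.464 FPKM, and *Ifih1*, which encodes the cytoplasmic RNA sensor MDA5, from 3.09 ± 0.163 to 2.36 ± 0.121 FPKM. *Tlr3*, the endosomal receptor for poly I:C, was below the filter at 0.0811 and 0.0452 FPKM. In the other direction, *Il1r1*, the IL-1 receptor, rose from 1.91 ± 0.126 to 3.43 ± 0.280 FPKM, *Il18* from 3.03 ± 0.489 to 4.92 ± 0.233 FPKM, *Tnfrsf13c*, the BAFF receptor, from 1.25 ± 0.247 to 2.19 ± 0.204 FPKM and *Ltb*, which encodes lymphotoxin β, from 24.5 ± 0.883 to 31.0 ± 2.10 FPKM. *Tnf* itself, at 5.49 ± 0.163 and 6.69 ± 0.843 FPKM, did not pass (adjusted p = 0.0594, limma). Its groups did not overlap, and it was called higher under 3 of the 16 alternatives.

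Among adaptors and kinases most changes were small, with a median size of 0.11 on the log2 scale. Of 33 genes 30 were tested, and 1 was higher, 10 lower and 19 did not pass, a called share of 36.7% beside 40.5% of all genes tested. The 10 became 4 to 7 when any 1 library was left out (4 without CTRL replicate 1) and 6 with a replicate block, and 5 of the 11 calls were kept under every alternative. The 3 parts of the IκB kinase complex had small log2 fold changes. That of *Chuk* was 0.02 (95% interval -0.06 to 0.11), *Ikbkb* -0.06 (-0.18 to 0.06) and *Ikbkg* -0.15 (-0.25 to -0.04, adjusted p = 0.0352, limma). The call of *Ikbkg* was lost under 10 of the alternative settings, and these 3 genes are named outside the rule, after their values were seen. *Map3k14*, which encodes NIK, the kinase that starts the non-canonical route, measured 2.79, 3.09 and 2.59 FPKM in the control libraries and 1.74, 1.83 and 1.38 FPKM in the *Myh9*-deficient libraries (log2 fold change -0.53, adjusted p = 0.00448, limma). So *Map3k14* was lower where *Relb* was higher, with no overlap between groups in either gene. *Ikbke* fell by 0.30, *Mavs*, the adaptor of cytoplasmic RNA sensing, by 0.27 and *Malt1* by 0.26 on the log2 scale, the last with a call lost under 11 of the alternatives. *Myd88*, the adaptor of IL-1 and most Toll-like receptors, rose from 20.3 ± 0.390 to 22.6 ± 0.545 FPKM, and the most abundant gene of the list, *Rbck1*, a part of the linear ubiquitin ligase, was at 46.0 ± 0.649 and 45.9 ± 1.27 FPKM.

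The other inhibitors of the pathway went in both directions. Of 15 genes 14 were tested, and 2 were higher, 5 lower and 7 did not pass (median log2 fold change -0.11). The called share was 50%, near the 40.5% of all genes tested. With any 1 library left out, 1 to 2 were higher and 3 to 5 lower, and 4 of the 7 calls were kept under every alternative. *Zc3h12a*, which encodes the RNase Regnase-1, fell from 7.89 ± 0.689 to 4.60 ± 0.674 FPKM (adjusted p = 0.00244, limma, with a log2 fold change of -0.67). *Bcl3*, a nuclear IκB protein like IκBζ and IκBNS, fell from 3.59 ± 0.216 to 2.42 ± 0.220 FPKM, and *Tnip1*, which encodes a binding partner of A20, from 15.6 ± 0.675 to 11.7 ± 0.652 FPKM. *Cyld*, a deubiquitinase, fell by 0.20 on the log2 scale, with a call lost under 9 of the alternatives. *Nfkbib*, the gene of the cytoplasmic inhibitor IκBβ, was at 23.8 ± 0.752 and 23.6 ± 0.942 FPKM (log2 fold change -0.01, 95% interval -0.11 to 0.09), and it too is named outside the rule. *Pdlim2*, which promotes the degradation of nuclear p65, rose from 4.34 ± 0.338 to 5.62 ± 0.177 FPKM. *Tnip2* rose by 0.14 on the log2 scale, with a call lost under 11 alternatives, and *Otulin*, the most abundant of the list, did not pass at 40.4 ± 3.71 and 39.3 ± 0.996 FPKM.

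Known NF-κB target genes were mostly lower. Of 34 genes 23 were tested, and 13 were lower, 4 higher and 6 did not pass, with a median log2 fold change of -0.25. Calls made up 73.9% of those tested, beside 40.5% of all genes tested. The chemokine gene *Ccl4* measured 66.1, 62.8 and 59.4 FPKM in the control libraries and 29.9, 23.8 and 30.5 FPKM in the *Myh9*-deficient libraries (log2 fold change -1.14, adjusted p = 2.3e-04, limma). *Cd69*, an early activation antigen, fell from 17.6 ± 0.992 to 7.68 ± 0.572 FPKM, *Ptgs2*, the inducible cyclooxygenase, from 2.20 ± 0.294 to 0.570 ± 0.0338 FPKM and the chemokine gene *Cxcl2* from 6.30 ± 0.178 to 3.24 ± 0.472 FPKM. The direction was not shared by all targets. *Ccl5*, a chemokine gene that T and NK cells also express, rose from 10.1, 11.7 and 8.47 FPKM in control to 34.4, 35.5 and 36.7 FPKM in the *Myh9*-deficient libraries (log2 fold change 1.73, adjusted p = 5.5e-05, limma). *Mmp9* rose by 0.45, *Bcl2l1*, which encodes the survival protein Bcl-xL, by 0.31 and *Sod2*, the mitochondrial superoxide dismutase, by 0.31 on the log2 scale, with a call for *Bcl2l1* that was lost under 4 alternatives. *Myc*, the most abundant of the list, was at 110 ± 1.32 and 111 ± 2.54 FPKM (95% interval of the log2 fold change -0.06 to 0.07). *Csf2* was at 0 in every library except CTRL replicate 1, which held 3 reads, so no difference between groups is read from it. *Cd40lg* was at 0 in every control library and held 8, 2 and 5 reads in the *Myh9*-deficient libraries. Both genes were below the filter.

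Immediate early genes, whose transcription starts soon after a stimulus or handling, were mostly lower as well. Of 29 genes 26 were tested, and 23 were lower, 1 was higher and 2 did not pass (median log2 fold change -0.79). Calls made up 92.3% of those tested, beside 40.5% of all genes tested. Their summed level was 1194–1205 FPKM in the control and 670–679 FPKM in the *Myh9*-deficient libraries. *Atf3* fell from 14.1 ± 0.820 to 1.93 ± 0.243 FPKM, *Nr4a1* from 40.2 ± 0.529 to 10.7 ± 0.681 FPKM, and *Btg2* and *Egr1* by 1.43 and 1.31 on the log2 scale. The most abundant over both groups together, though not in control alone, was *Ier2*, which fell from 170 ± 3.03 to 102 ± 2.94 FPKM. *Per1*, a clock gene, rose from 4.70 ± 0.0374 to 7.20 ± 0.202 FPKM. Of 8 heat shock genes 4 were lower, led by *Hspa1b* (-2.40), *Hspa1a* (-1.11), *Dnajb1* (-0.42) and *Hspa8* (-0.29), and 2 were higher, *Hspe1* (0.30) and *Hspd1* (0.23), as log2 fold changes. Their called share was 75%, beside the same 40.5%. *Hspa1a* and *Hspa1b* are near copies of each other, so reads could be shared between them. The part of these stress-responsive genes, and of the monocyte markers, in the falls of *Nfkbia*, *Nfkbiz*, *Nfkbid* and *Tnfaip3* was not tested.

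**Figure D4:**
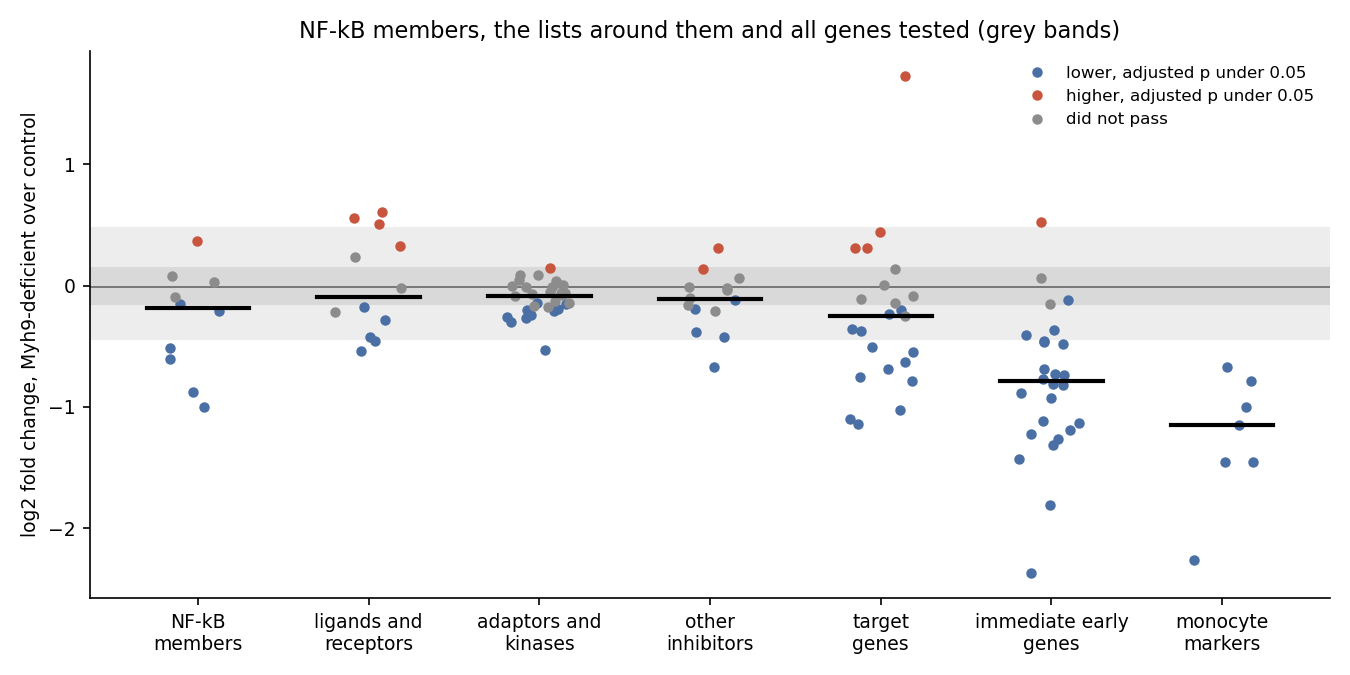
Log2 fold change of the tested genes of each list, *Myh9*-deficient over control, with 1 point per gene and a black bar at the list's median. The grey bands hold the middle 50% and the middle 90% of all 11552 genes tested, from -0.15 to 0.15 and from -0.44 to 0.48. The members spread from -1.0001 to 0.37, and the immediate early genes and the monocyte and macrophage markers have the lowest medians, at -0.79 and -1.15.

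Of the 7 called members, *Rel*, *Nfkbia*, *Nfkbiz*, *Nfkbid* and *Tnfaip3* were called in the same direction under each alternative setting in which they were tested. Over the fits that left out 1 library, the log2 fold change ran from -1.04 to -0.93 for *Nfkbiz*, from -0.89 to -0.86 for *Tnfaip3*, from -0.63 to -0.58 for *Nfkbid*, from -0.57 to -0.46 for *Rel* and from -0.22 to -0.21 for *Nfkbia*. *Relb* ran from 0.30 to 0.41 and *Rela* from -0.18 to -0.12.

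**Figure D5:**
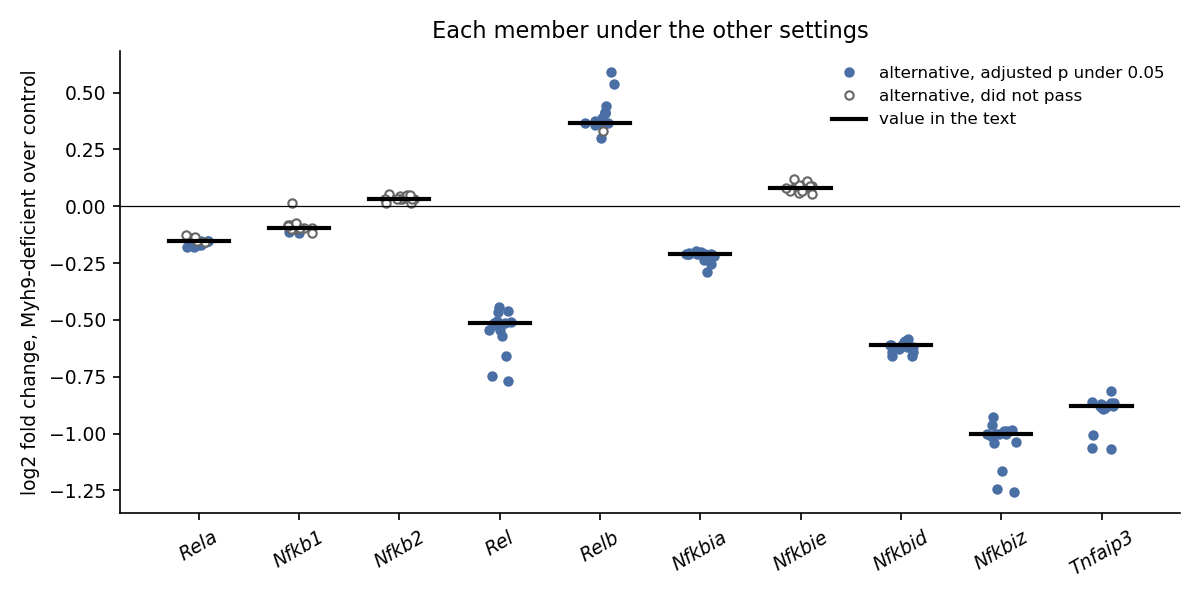
Log2 fold change of each member under every alternative setting, filled where the adjusted p was under 0.05 and open where it was not, with the value of the text as a black bar. *Nfkb1* is the only member whose points lie on both sides of 0, and *Rela* and *Relb* are the called members with open points.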

How the data were processed

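The authors deposited FPKM values with gene lengths for 54532 genes in 6 libraries (mm10). The submitters' processing notes name HISAT2 2.0.5, and the counting program is not given in the sources used here. The mRNA kit does not mark strand. The 10 members and all lists were chosen with earlier results of these data known. Samples were grouped by their titles. The 11552 genes that averaged 1 FPKM or more were tested on log2(FPKM + 1), which has a pseudocount of 1, with limma 3.58.1 (R 4.3.3, moderated with a trend, two-sided, Benjamini-Hochberg adjustment over all genes tested), after a check on simulated data. With 3 libraries a group, the smallest two-sided exact permutation p for a single gene is 0.1. Reads recovered as whole numbers for 100% of values (tolerance 0.05) gave the depth: 3 reads equal 0.151 to 0.170 FPKM at 1 kilobase, and such read numbers cover counting error only.

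Besides the members, the text names *Myh9*, the defining cell type markers (except 1 that is not reported here) and those at 0 in a group, and from each other list the 4 largest called rises, the 4 largest called falls and the most abundant gene. It also names the 3 genes most like *Nfkbia*, *Nfkbiz* and *Tnfaip3* among those averaging 5 FPKM or more, and genes whose exons overlap a member. *Flt3*, *Procr*, *Cd79a*, *Tlr3*, *Tnf*, *Cd40lg*, *Csf2*, *Chuk*, *Ikbkb*, *Ikbkg* and *Nfkbib* were added after their values were seen. Alternatives were the filter on low values dropped or raised to a mean of 5 FPKM, 0.1 as the pseudocount, median-of-ratios scaling, quantile normalization, TPM, no trend, a replicate block, voom on recovered reads, taking out the dependence on GC content and length, and leaving out each library. Tables and plots were made in Python 3.11.15 (numpy 2.4.6, pandas 2.3.3, matplotlib 3.10.9).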

Additional observations from a re-analysis of the deposited data

How the results depend on the processing

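Of 156 values of the 10 members under 16 alternative settings, 148 kept their direction and their side of the threshold. The exceptions were *Nfkb1*, *Rela* and *Relb*, and the log2 fold change of *Nfkb1* changed sign to 0.014 once the dependence on GC content and length was taken out. A mean of at least 5 FPKM leaves out *Rel*, *Relb*, *Nfkbiz* and *Tnfaip3*, which gave 0 members higher and 3 lower. It gave 2 ligands and receptors higher and 3 lower, 6 adaptors and kinases lower, 1 other inhibitor higher, 2 target genes higher and 8 lower, and 2 heat shock genes lower, with fewer genes tested. Without a filter on low values, 3 adaptors and kinases were higher and 6 lower, and 2 immediate early genes were higher. With the filter kept and the dependence on GC content and length taken out, 6 adaptors and kinases were lower, 1 other inhibitor was higher and 3 were lower. In 3 further settings, quantile normalization, TPM and voom, 1 other inhibitor was higher. The cause was not tested. Without 1 library, 0 to 1 members were higher (0 without cKO replicate 3), 4 to 7 adaptors and kinases lower (4 without CTRL replicate 1, against 10 with all libraries), 1 to 2 other inhibitors higher and 3 to 5 lower.

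The samples share only a replicate number: deviations of same-numbered libraries correlated at -0.005 to -0.026. With a replicate block, 1 member was higher and 6 were lower, 6 adaptors and kinases were lower, and 1 other inhibitor was higher and 3 were lower, and 4107 genes of all tested were called. Depth limits the values of *Relb* and *Rel* most, at 99 to 418 reads per library.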
